A study of Mus musculus with 2 samples.

Results

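The genes of glycolysis examined here were Slc2a1, Hk2, Gpi1, Aldoa, Tpi1, Gapdh, Pgk1, Eno1, Pkm and Ldha, 10 of the 31053 genes counted in B cells sorted from the mouse heart. They were chosen as a list of names, one glucose transporter and 9 enzymes, and were followed in 2 single cell libraries. Cells were kept when the droplet held at least 2000 gene UMIs (unique molecular identifiers, 1 count per captured mRNA molecule), at most 10% mitochondrial UMIs and at least 1 UMI of Cd79a, which encodes a chain of the B cell receptor. This left 2077 of 2507 neonatal droplets and 3611 of 4120 adult droplets. Both libraries came from wild-type C57BL6/J mice with no other treatment, at 2 weeks of age (neonatal, sexes pooled) and 8 weeks of age (adult, male), each from 6 pooled mice whose hearts were digested as 2 tubes of 3, with living B cells sorted on the same day. With 1 library per age, no difference between ages or between classes of cells has a replicate check, and every interval given here is an exact 95% interval that covers counting error only. Age and sex cannot be told apart by design, although a comparison of cells with a Y-linked UMI and no Xist UMI is given below.

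Glycolysis splits glucose into pyruvate in the cytosol and returns ATP and NADH. Resting B cells run it at a low rate, and B cells that are activated or dividing are known to take up more glucose and to raise many of these enzymes together, through regulators such as MYC and HIF1. B1 cells, the innate-like B cells that are common in body cavities, are known for higher glucose use than conventional B2 cells, the follicular type that recirculates through blood and lymph.

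Depth differed little between the libraries in the median cell, at 6000 and 6131 UMIs in neonatal and adult cells, and more in the upper quartile, at 8204 and 11137 UMIs. The kept cells held 16403180 and 34623240 UMIs, of which 25763 and 51868 belonged to the 10 genes. At least 500 UMIs were found under the same barcode in both libraries for 110 barcodes, and 61 neonatal and 45 adult cells carried such a barcode, of which 2 barcodes were kept cells in both. Those cells were deep, with a median of 30537 and 58990 UMIs. Values without them are given for part of the results that they moved, and not for single genes outside the list of 10. All 10 genes were counted once, under 1 identifier with UMIs. Another identifier that carries the name Aldoa had 0 UMIs, and the copies Eno1b, Gapdhs and Ldhal6b held at most 31 UMIs in a library.

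In the GENCODE vM21 annotation of GRCm38 the members are protein coding genes. On chromosome 4 lie Slc2a1 at 119108711 to 119137983 (plus strand) and Eno1 at 150236721 to 150248879 (plus strand). On chromosome 6 lie Hk2 at 82725025 to 82774454 (minus strand), Tpi1 at 124810586 to 124814296 (minus strand) and Gapdh at 125161715 to 125166467 (minus strand). On chromosome 7 lie Gpi1 at 34201330 to 34230336 (minus strand), Ldha at 46841475 to 46855627 (plus strand) and Aldoa at 126795234 to 126800751 (minus strand). Pkm lies on chromosome 9 at 59656368 to 59679375 (plus strand), and Pgk1 on chromosome X at 106187100 to 106203699 (plus strand).

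The upstream sequences of several members held the letters ACGTG, the core of the element bound by HIF1, and one held CACGTG, the E-box bound by MYC. RefSeq windows of the 250 bases before each transcript start (GRCm38.p6) were searched on both strands, and CACGTG holds ACGTG on each strand, so a CACGTG match counts under both. ACGTG stood in 7 of 16 windows of the 10 genes (43.75%), belonging to 6 genes, against 16.6% of all 32851 windows of the same length. The windows overlap where a gene has several starts, so the shares are a description. The 3 windows that held at least 2 separate matches are printed 5′ to 3′ on the strand of the gene, with the matches on either strand in capitals. They are shown for their number of matches alone, and no link between matches and level was tested. None of these windows overlaps an annotated exon. Ldha lies on chromosome 7 (plus strand), Pgk1 on chromosome X (plus strand) and Hk2 on chromosome 6 (minus strand).
Ldha, chr7:46845554-46845803: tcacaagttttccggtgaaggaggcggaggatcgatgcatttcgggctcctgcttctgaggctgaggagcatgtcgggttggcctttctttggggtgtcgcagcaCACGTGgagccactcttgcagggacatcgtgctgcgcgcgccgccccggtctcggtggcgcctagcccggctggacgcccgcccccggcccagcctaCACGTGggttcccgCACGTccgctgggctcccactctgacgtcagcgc
Pgk1, chrX:106186850-106187099: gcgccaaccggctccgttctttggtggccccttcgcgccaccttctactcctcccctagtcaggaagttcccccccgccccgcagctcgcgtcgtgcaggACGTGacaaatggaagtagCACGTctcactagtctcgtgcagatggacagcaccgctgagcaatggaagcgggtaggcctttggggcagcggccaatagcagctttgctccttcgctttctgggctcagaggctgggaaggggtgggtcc
Hk2, chr6:82774455-82774704: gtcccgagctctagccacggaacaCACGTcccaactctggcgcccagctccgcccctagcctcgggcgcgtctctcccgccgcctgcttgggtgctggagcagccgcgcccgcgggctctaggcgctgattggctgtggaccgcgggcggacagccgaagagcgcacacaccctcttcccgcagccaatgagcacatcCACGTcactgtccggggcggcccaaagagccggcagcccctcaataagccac
The Ldha window held 3 separate matches, of which 2 were CACGTG, a motif found in 6.02% of all windows. No ACGTG stood in the searched windows of Gpi1, Tpi1, Gapdh or Eno1, which says only that these letters were not in them.

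Summed over all cells, the 10 genes took 1571 CPM (UMIs of a gene in 1e6 gene UMIs) in the neonatal library (1551 to 1590) and 1498 CPM in the adult library (1485 to 1511). Gapdh, the dehydrogenase that makes the NADH of the pathway, had by far the highest level, at 502 CPM (491 to 513) in neonatal and 482 CPM (475 to 490) in adult cells. The 3′ UMI counts were not divided by gene length, since 1 molecule gives 1 count whatever its length. Hk2 was the lowest member in both libraries, at 7.80 CPM (6.51 to 9.28) and 4.71 CPM (4.01 to 5.49), and was the only member below the 20 CPM that a gene needed for the counts over all genes. Slc2a1, the GLUT1 glucose transporter of the plasma membrane, followed at 26.3 CPM (23.9 to 28.9) and 21.9 CPM (20.4 to 23.5).

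The remaining order differed in part between the ages. In the neonatal library Gpi1 (178 CPM), Ldha (174 CPM) and Eno1 (171 CPM) had overlapping intervals below Aldoa (227 CPM), as did Pgk1 (77.7 CPM) and Tpi1 (72.9 CPM) further down. In the adult library Aldoa (214 CPM) and Gpi1 (209 CPM) overlapped, followed by Eno1 (151 CPM) and Pkm (146 CPM), which overlapped, then by Ldha (133 CPM) and, at a distance, by Pgk1 (79.9 CPM) and Tpi1 (56.4 CPM). Ldha, which reduces pyruvate to lactate, thus stood above Pkm (134 CPM), the last ATP-making enzyme, in neonatal cells and below it in adult cells.

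**Figure D1:**
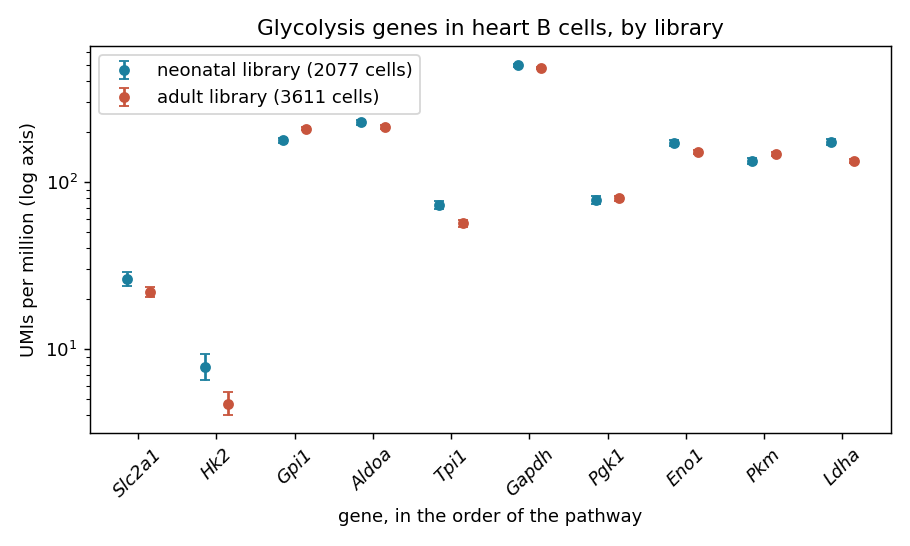
Level of each glycolysis gene in CPM on a log axis, in the 2077 neonatal and 3611 adult cells, with genes in the order of the pathway. Points are 1 library each and bars are exact 95% counting intervals. Gapdh is highest and Hk2 lowest at both ages, and Hk2 is the member set farthest apart, followed by Ldha and Tpi1.

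Across age, the members did not move as a block. Adult over neonatal, the log2 ratio of CPM was below 0 with an interval excluding 0 for 7 genes, above it for Gpi1 and Pkm, and spanned 0 for Pgk1. No member was at least 1.5-fold higher in adult cells, where 3.58% of the 5058 genes of at least 20 CPM were. One member, Hk2, was at least 1.5-fold lower, where 7.63% of those genes were and 11.2% passed that fold in either direction. Hk2 is below 20 CPM and is therefore not among the genes behind these percentages, here and in the other comparisons. The median of the members was -0.14 and the median of all genes was also -0.14. Median-of-ratios scaling, which sets the median of all genes to 0, moved the members' median to 0.01.

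Of the members that take up and phosphorylate glucose, both had lower values in adult cells. Hk2, a hexokinase that traps glucose in the cell, had 128 neonatal and 163 adult UMIs, a log2 ratio of -0.73 (-1.07 to -0.38). The ratio of Slc2a1 was -0.26 (-0.43 to -0.09). Genes of the same steps outside the list were mixed. The hexokinase Hk1 had 12.4 CPM in neonatal and 16.8 CPM in adult cells, above Hk2 at both ages and higher in adult cells (0.44, 0.21 to 0.68). The transporter Slc2a3 was at 0.06 (-0.21 to 0.34), Slc2a6 at -0.01 (-0.42 to 0.41) and Slc2a8 at -0.26 (-0.77 to 0.27). Among the enzymes that rearrange and split hexose phosphates, Gpi1 was higher in adult cells, at 0.23 (0.17 to 0.29), and Tpi1, which interconverts the triose phosphates, was lower, at -0.37 (-0.47 to -0.26). Aldoa, the aldolase that makes those trioses, was at -0.09. In the later, ATP-making part, Gapdh was at -0.06, Pgk1 at 0.04, Eno1 at -0.18 and Pkm at 0.12. Ldha was at -0.38 (-0.45 to -0.31).

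Relative to the median gene, the direction held for Hk2 (-0.59), Tpi1 (-0.23) and Ldha (-0.24) and for Gpi1 (0.37) and Pkm (0.27), whereas Gapdh (0.09) and Aldoa (0.05) turned to above 0. The unscaled intervals of Slc2a1 (-0.43 to -0.09) and Eno1 (-0.25 to -0.12) included the median of all genes, -0.14. Without the shared barcodes Gapdh also turned to 0.04 and Hk2 was at -0.48, and without the deepest 5% of cells Hk2 was at -0.57, so that it no longer passed 1.5-fold in either case. In cells with a Y-linked UMI and no Xist UMI, 1279 neonatal and 2819 adult, Hk2 was at -0.79, Ldha at -0.41 and Gpi1 at 0.19. Markers of macrophages summed to 82.3 CPM in neonatal and 12.3 CPM in adult cells, and markers of neutrophils to 25.1 CPM and 0, with 4 of 4 at 0 in adult cells. Without the 50 neonatal and 77 adult droplets that held at least 2 marker genes of another cell type, the median over the members was -0.12.

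**Figure D2:**
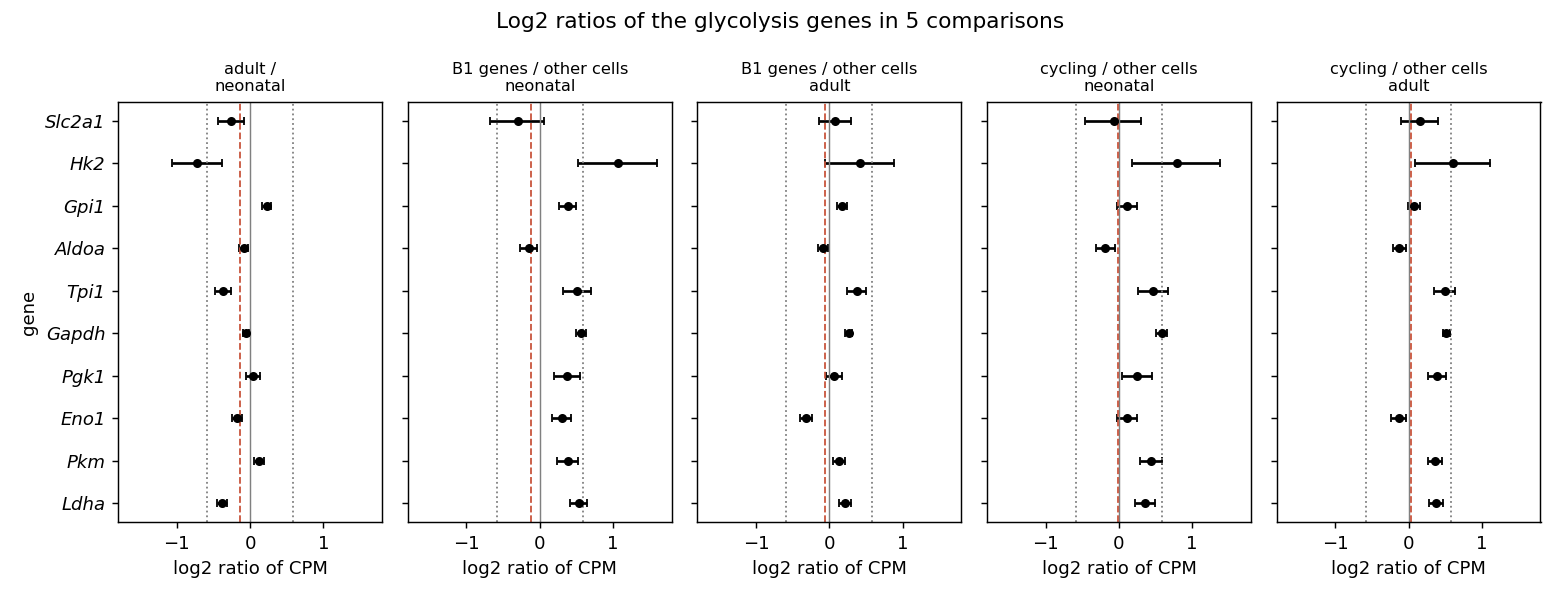
Log2 ratios of CPM for the 10 genes in the 5 comparisons, with exact 95% counting intervals. Dotted lines mark 1.5-fold, the dashed line the median of all genes tested. Most members lie right of that median in the B1 and cycling panels, Aldoa lies at or left of 0 in all 5, and the age panel is centred on it.

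Cells were then divided by 6 genes that mark B1 cells in these libraries, Bhlhe41, Zbtb32, Ctla4, Cd9, S100a6 and Nid1. At least 3 of them had a UMI in 177 neonatal cells (8.52%, 7.36 to 9.81) and 580 adult cells (16.1%, 14.9 to 17.3). The division matched other markers. Cd5, Spn, Itgam and Fcrl5, which B1 cells are known to carry, were higher in those cells in both libraries. Their log2 ratios went from 1.45 for Itgam in neonatal cells to 3.60 for Cd5 in adult cells. All 4 were below 20 CPM over both libraries. The B2 genes Cr2, Fcer2a, Ighd and Vpreb3 were lower, at -2.14 to -1.39 in neonatal and -1.45 to -0.52 in adult cells. Depth moved with this division. The median depth was 15881 UMIs in neonatal cells with at least 3 and 5821.5 in the rest, and in the adult library it was 16550 and 5150. Near the threshold, 63 neonatal and 201 adult cells had exactly 3 of the genes, and 122 and 306 had exactly 2.

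In the neonatal library the glycolysis genes were mostly higher in cells with at least 3 B1 genes. Their sum was 1918 CPM (1873 to 1964) against 1475 CPM in the other cells (1454 to 1496), a log2 ratio of 0.38 (0.34 to 0.42). The interval of the ratio lay above 0 for 8 of 10 genes and below 0 for Aldoa alone, at -0.15. Only Hk2 was at least 1.5-fold higher, at 1.07 (0.52 to 1.60), from 47 UMIs against 81, or 13.2 CPM against 6.30 CPM. Among all genes tested, 5.16% were at least 1.5-fold higher and 15.1% passed that fold in either direction. None of the members was 1.5-fold lower, against 9.93% of all genes. The median of the members was 0.38, and that of all genes was -0.12.

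Gapdh had 672 CPM in the neonatal B1-gene cells and 455 CPM in the others, a log2 ratio of 0.56 (0.49 to 0.63), just under 1.5-fold. Ldha followed at 229 CPM against 158 CPM (0.53, 0.41 to 0.65) and Tpi1 at 95.1 CPM against 66.8 CPM (0.51, 0.32 to 0.69). Gpi1, Pgk1 and Pkm were each at 0.37 to 0.38, and Eno1, the enolase, at 0.30. Slc2a1 was at -0.30 with an interval that included 0 (-0.67 to 0.05). Relative to the median of all genes, which lay at -0.12, 4 members passed 1.5-fold, where 7.04% of all genes did on that scale. Plasma cell markers summed to 256 CPM in the B1-gene cells and 57.3 CPM in the others, and T cell markers to 22.5 CPM and 7.16 CPM. Neutrophil markers summed to 59.6 CPM and 15.5 CPM and macrophage markers to 102 CPM and 76.8 CPM. Endothelial markers (115 CPM and 146 CPM) and erythroid markers (7.03 CPM and 7.78 CPM) were lower in the B1-gene cells. At least 2 marker genes of another cell type were found in 18 of the 177 B1-gene cells and 32 of the 1900 others. Most of the plasma cell sum was Jchain, of which 1 cell held 775 of 826 UMIs in the B1-gene cells. Among the others 1 cell held 531 of 562. Of the plasma cell markers only Sdc1 was lower in the B1-gene cells, at 2.81 CPM against 7.63 CPM. In the adult library the plasma cell sum was 67.1 CPM in the B1-gene cells and 171 CPM in the others. Without droplets with markers of another cell type the neonatal median was again 0.38.

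These neonatal differences rested in part on the deepest cells. The 104 cells of the top 5% by UMIs held 61.9% of all UMIs of the B1-gene cells. Without them the median fell to 0.19, with Gapdh at 0.23, Ldha at 0.32 and Pkm at -0.03. Without the shared barcodes, which 45 of the 177 cells carried, the sum was 1729 CPM against 1469 CPM, the median was 0.29, Gapdh was at 0.32, Pkm at 0.02 and Hk2 at 0.42, so that no member was 1.5-fold higher. Aldoa was then nearly equal, at 232.6 CPM (211.5 to 255.2) against 233.1 CPM (224.7 to 241.8). Ldha was at 200 CPM against 158 CPM and Tpi1 at 81.7 CPM against 66.2 CPM without those barcodes. Averaged over quartiles of depth, the median was 0.01 and Gapdh was at -0.51, but the lower quartiles held only 0, 2 and 4 cells with at least 3 B1 genes. In the deepest quartile, with 171 such cells against 348 others, the median was 0.37, with Gapdh at 0.45, Ldha at 0.45 and Hk2 at 0.41.

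In the adult library the same division gave smaller values. The sum was 1576 CPM (1555 to 1598) in the 580 cells with at least 3 B1 genes and 1453 CPM (1437 to 1469) in the others, a log2 ratio of 0.12 (0.09 to 0.14). No member was 1.5-fold higher or lower, where 2.63% and 2.83% of all genes were, or 5.46% in either direction. The median was 0.15, against -0.06 for all genes. Tpi1 was at 0.38 (0.24 to 0.51), Gapdh at 0.26 (540 CPM against 449 CPM), Ldha at 0.21, Gpi1 at 0.17 and Pkm at 0.13. The intervals of Hk2 (0.41, -0.05 to 0.88), Slc2a1 (0.08) and Pgk1 (0.06) included 0. Aldoa lay below 0, at -0.09 (-0.16 to -0.02), as it did in the neonatal library.

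Eno1 was also lower with B1 genes in adult cells, but not in neonatal cells. It had 130 CPM (124 to 137) in cells with at least 3 B1 genes and 162 CPM (157 to 168) in the others, a log2 ratio of -0.32 (-0.40 to -0.23), while in neonatal cells it had 200 CPM against 163 CPM. The adult value stayed below 0 without the shared barcodes (-0.31), without the deepest 5% of cells (-0.30), without cycling cells (-0.33) and in the deepest quartile alone (-0.17). It was at 0.46 with at most 5% mitochondrial UMIs, which left 21 cells with at least 3 B1 genes and 135 others. In the deepest quartile, with 465 cells against 438, the adult median was 0.08, Gapdh was at 0.09 and Pkm was at -0.01. Adult Eno1 also fell with depth, from 201 CPM in quartile 1 to 166 CPM, 150 CPM and 139 CPM in quartile 4. Adult quartiles 1 and 2 held only 0 and 4 cells with at least 3 B1 genes. Neonatal Eno1 was 170 CPM, 164 CPM, 166 CPM and 176 CPM over its quartiles. How much of the adult value followed depth was not tested.

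By the number of B1 genes with a UMI, Gapdh, Ldha and the sum rose with each class in neonatal cells, while no other member did. Neonatal Gapdh was 435 CPM with 0 of the 6 genes, 468 CPM with 1, 522 CPM with 2, 593 CPM with 3, 674 CPM with 4 and 719 CPM with 5 to 6. Adult Gapdh went from 411 CPM to 574 CPM over the same classes. Ldha went from 152 CPM to 261 CPM in neonatal cells and from 112 CPM to 150 CPM in adult cells, where most of that distance lay between 0 and 1 gene (140 CPM). Eno1 rose from 160 CPM to 218 CPM in neonatal cells and fell from 173 CPM to 128 CPM in adult cells. Without the shared barcodes neonatal Gapdh was 506 CPM with 3 genes, 637 CPM with 4 and 540 CPM with 5 to 6. Over the same classes Ldha was 196 CPM, 183 CPM and 225 CPM, and the sum 1591 CPM, 1903 CPM and 1710 CPM. None of them then rose with each class. The median depth rose along the same classes, from 5533 to 20010 UMIs and from 4391 to 22132 UMIs.

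**Figure D3:**
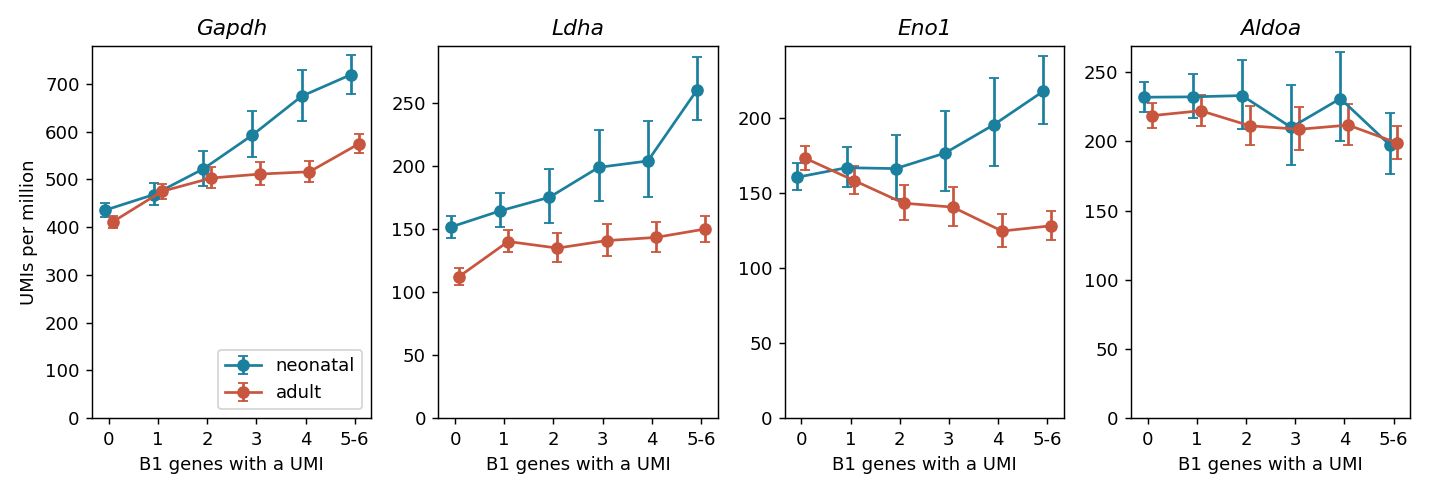
Level of Gapdh, Ldha, Eno1 and Aldoa in CPM by the number of the 6 B1 genes with a UMI in a cell, from 0 to 5 to 6. Points are 1 library each, bars exact 95% counting intervals. The Eno1 lines cross, rising in neonatal and falling in adult cells, and Aldoa stays near its starting level.

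Within the cells that had at least 3 B1 genes, the difference between the ages rested in part on the shared barcodes. With all cells, the sum was 1576 CPM in adult and 1918 CPM in neonatal cells, a log2 ratio of -0.28 (-0.32 to -0.24), and the median of the members was -0.26 against -0.09 for all genes. Hk2 (-1.24), Ldha (-0.65, -0.77 to -0.53) and Eno1 (-0.62, -0.75 to -0.49) were at least 1.5-fold lower in adult cells, where 7.08% of genes were, and none was higher, where 4.65% were (11.7% in either direction). Tpi1 (-0.53), Gapdh (-0.32) and Pgk1 (-0.20) were lower by less than 1.5-fold, with intervals that excluded 0. Gpi1, Slc2a1, Aldoa and Pkm had intervals that included 0. Without the shared barcodes, which left 132 neonatal and 541 adult cells, the median was -0.13, with Hk2 at -0.56, Eno1 at -0.53, Ldha at -0.50 and Gapdh at -0.05, so that no member passed 1.5-fold. The class was also not alike at the ages. Of the 4 B2 genes, Cr2 (3.07), Fcer2a (1.74) and Ighd (1.06) were higher and Vpreb3 (-0.34) was lower in the adult cells of the class. A UMI of Mki67 or Top2a was found in 54 of the 177 neonatal and 139 of the 580 adult cells. The part of B2 genes or of such cells in the difference was not tested.

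In cells with neither 3 B1 genes nor a cycling UMI, 1768 neonatal and 2814 adult, the sum was 1475 CPM and 1422 CPM, and Eno1 was equal at 163 CPM and 164 CPM. There Hk2 alone was 1.5-fold lower in adult cells (-0.73), where 8.41% of genes were, and none was higher, where 3.96% were (12.4% in either direction). Ldha was at -0.38. These comparisons within classes were chosen after the data had been seen.

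Cycling cells were those with a UMI of Mki67 or Top2a, genes of dividing cells, 186 neonatal (8.96%) and 356 adult (9.86%). All 8 other cell cycle genes examined were higher in them in both libraries, from Pcna (0.52 neonatal, 0.96 adult) to Ube2c (7.18 and 6.84). Depth moved with this division too. The median neonatal cell held 10179.5 UMIs if cycling and 5903 if not, and the median adult cell 14311.5 and 5634. In total 54 neonatal and 139 adult cells were both cycling and carried at least 3 B1 genes. Plasma cell markers summed to 526 CPM in cycling and 15.1 CPM in other neonatal cells and to 464 CPM and 47.6 CPM in adult cells, with Tnfrsf17 at 0 in the neonatal cells outside the class. Most of it was Jchain from few cells, up to 775 UMIs in 1 neonatal and 1021 in 1 adult cell. Without droplets with markers of another cell type, plasma cell markers included, the medians given below were 0.33 and 0.37.

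Gapdh differed most in CPM between cycling and other cells of both libraries. It had 693 CPM (663 to 725) in cycling and 463 CPM (452 to 475) in other neonatal cells, a log2 ratio of 0.58 (0.51 to 0.66), and 633 CPM (615 to 652) against 444 CPM (436 to 452) in adult cells, at 0.51 (0.46 to 0.56). Tpi1 was at 0.47 and 0.49, Pkm at 0.44 and 0.36, Ldha at 0.36 and 0.37 and Pgk1 at 0.24 and 0.39 in neonatal and adult cells. Hk2 was at 0.80 (0.18 to 1.38) and 0.61 (0.08 to 1.11). Slc2a1 and Gpi1 had intervals that included 0 at both ages, and Aldoa was below 0 at both, at -0.19 and -0.12. Eno1 was at 0.11 with an interval including 0 in neonatal cells and at -0.13 (-0.24 to -0.03) in adult cells. The higher neonatal values rested in part on the shared barcodes. Without them, neonatal Gapdh outside the B1-gene cells was 470 CPM (430 to 513) if cycling and 447 CPM (435 to 460) if not. Among the B1-gene cells it was 578 CPM (505 to 660) and 555 CPM (518 to 593). The intervals overlapped each time, as did those of Tpi1, Pkm, Ldha and Pgk1. Adult Gapdh was then 607 CPM against 427 CPM and 673 CPM against 487 CPM.

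Only Hk2 was at least 1.5-fold higher in cycling cells, in both libraries, where 3.28% of neonatal and 1.82% of adult genes were. No member was 1.5-fold lower, where 1.5% and 0.119% of genes were, and 4.79% and 1.94% passed that fold in either direction. The medians of the members were 0.30 in neonatal and 0.37 in adult cells, against -0.01 and 0.03 over all genes. The sums were 1876 CPM against 1510 CPM and 1731 CPM against 1438 CPM.

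The adult difference was kept in cells without 3 B1 genes, and the neonatal difference was not. Without cells with at least 3 B1 genes, the adult median was 0.32 with Gapdh at 0.52, and the neonatal median was -0.05 with Gapdh at 0.16, Pkm at 0.01, Ldha at -0.11 and Hk2 at -0.18 (7 cycling UMIs). The neonatal median was 0.04 without the shared barcodes, which 34 of the 186 cycling cells carried, and 0.01 without the deepest 5% of cells, of which 47 of 104 were cycling. Hk2 then reversed to -0.26 and -0.39. The adult median was 0.35 and 0.21 under the same removals. Averaged over quartiles of depth the medians were 0.04 and 0.10, where the lowest neonatal quartile held 18 cycling cells, and in the deepest quartile alone they were 0.25 and 0.32. Stricter cycling classes gave higher values in both libraries, with a median of 0.56 and 0.57 for at least 2 UMIs of Mki67 and Top2a and 0.70 and 0.75 for a UMI of both, the latter in 27 and 51 cells, with 6 members past 1.5-fold in each library, where 10.0% and 9.89% of all genes were in that class. These stricter classes were not examined without shared barcodes, without the deepest cells or without cells with at least 3 B1 genes.

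In neonatal cells the sum was 1475 CPM (1453 to 1498) with neither, 1702 CPM (1646 to 1759) with B1 genes only, 1467 CPM (1400 to 1535) with cycling only and 2218 CPM (2143 to 2295) with both. In adult cells the corresponding sums were 1422 CPM (1405 to 1439), 1475 CPM (1449 to 1501), 1671 CPM (1622 to 1720) and 1769 CPM (1730 to 1809). Cycling alone was therefore the class next to the highest in adult cells and overlapped the class with neither in neonatal cells. Gapdh reached 852 CPM (806 to 901) in the 54 neonatal cells with both, against 449 CPM with neither, and 647 CPM (624 to 672) in the 139 adult cells, against 426 CPM. Hk2 had 17.5 CPM from 26 UMIs in those neonatal cells and 6.39 CPM from 28 UMIs in those adult cells. The 54 neonatal cells with both had a median depth of 23953 UMIs, and 29 of them carried a shared barcode. Without those, the sum in the 25 cells left was 1785 CPM (1654 to 1924), which overlapped B1 genes only at 1715 CPM (1650 to 1782), and Gapdh was 578 CPM (505 to 660). In adult cells without shared barcodes the sum with both was 1793 CPM and Gapdh 673 CPM.

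**Figure D4:**
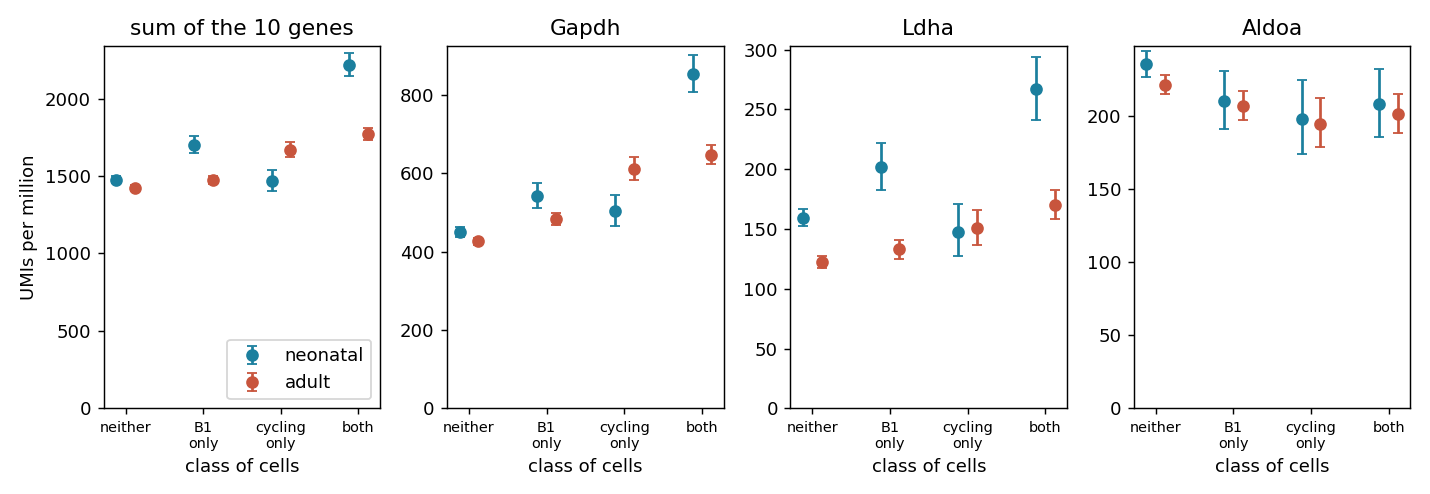
Level of the 10 genes together and of Gapdh, Ldha and Aldoa in CPM, in cells with neither 3 B1 genes nor a cycling UMI, with either alone and with both. Points are 1 library each and bars exact 95% counting intervals. With all cells the neonatal sum is highest with both (2218 CPM, or 1785 CPM without shared barcodes) and overlaps the class with neither in cycling-only cells, and Aldoa is highest in cells with neither at both ages. Without shared barcodes neonatal Aldoa was 255 CPM (207 to 311) with both and 235 CPM (227 to 245) with neither.

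Per cell, the members were sparse and varied more than counting alone would give. With every cell thinned to 2000 UMIs, the 10 genes together had a mean of 2.91 UMIs (SD 1.94) in neonatal and 2.92 UMIs (SD 1.98) in adult cells, and a median of 3 in each. The variance was 1.29 and 1.35 times the mean, where counting alone would give 1, and 1.57 and 1.65 times the mean in cycling cells. No UMI of any member was left in 155 neonatal (7.46%) and 275 adult cells (7.62%), against 5.42% and 5.38% from counting at the same mean. The mean was 3.61 UMIs in neonatal cells with at least 3 B1 genes and 2.85 in the others, and 3.16 and 2.88 in adult cells. It was 3.26 UMIs in cycling and 2.88 in other neonatal cells, and 3.40 and 2.87 in adult cells. A UMI of Gapdh was left in 56.5% (54.3 to 58.6) of neonatal and 56.4% (54.7 to 58.0) of adult cells, and before thinning in 90.0% and 88.1%. Free RNA, taken as the content of near-empty droplets with a mean of 55.9 and 92.0 UMIs, would give a Gapdh UMI to 2.35% and 3.38% of droplets. For Hk2 the thinned shares were 1.16% (0.742 to 1.71) and 0.803% (0.538 to 1.15).

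Pairs of members were hardly correlated over cells at that depth, with Pearson's r from -0.04 to 0.08 over the 45 pairs in neonatal and from -0.03 to 0.07 in adult cells, as a description of sparse counts in cells that share a library. No single cell carried a member: the highest share of a gene's UMIs in 1 cell was 3.91%, for Hk2 in neonatal cells.

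**Figure D5:**
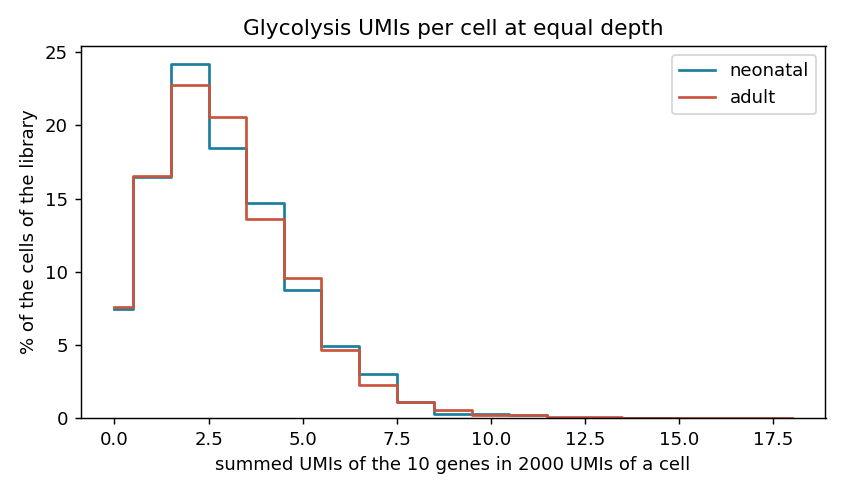
Summed UMIs of the 10 genes in each cell thinned to 2000 UMIs, as a percentage of the cells of each library. The neonatal and adult outlines lie over each other, with a median of 3 UMIs in both.

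Of 50 other genes of the pathway, 18 reached 20 CPM. Glucose transporters other than Slc2a1 did not, Slc2a3 being the highest at 9.75 CPM in neonatal and 10.2 CPM in adult cells. Of other glycolytic enzymes, only Pgam1 (75.6 CPM and 79.6 CPM), the mutase between Pgk1 and Eno1, and the phosphofructokinases Pfkl and Pfkp reached 20 CPM, and the tissue-restricted forms Pklr and Pgk2 had 0 UMIs in both libraries, which allows up to 0.183 CPM and 0.0866 CPM. Across age, none of the 18 was 1.5-fold higher and 1 was lower, beside 3.58% and 7.63% of all genes, so the count is near the share of all genes. The 1 gene was Rpia of the pentose phosphate pathway, at 101 CPM and 58.6 CPM (-0.79, -0.89 to -0.70). Hif1a was at 0.36 (57.2 CPM and 73.3 CPM) and Myc at -0.26 (120 CPM and 100 CPM).

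In neonatal cells with at least 3 B1 genes, 1 of the 18 was 1.5-fold higher, Myc, at 166 CPM against 107 CPM (0.63, 0.49 to 0.77), and none was lower, beside 5.16% and 9.93% of all genes. A count of 1 of 18 is near that share. Pgam1 was at 0.51 and Pfkl at -0.43 there. In adult cells Myc was at 0.03, Hif1a at 0.32, Pgam1 at 0.06 and Pfkl at -0.31, and none of the 18 passed 1.5-fold, beside 2.63% higher and 2.83% lower over all genes. None of the 18 passed it in cycling cells of either library, beside 3.28% higher in neonatal and 1.82% higher in adult cells, with medians of 0.04 in neonatal and 0.14 in adult cells. Pgam1 was at 0.40 and 0.18 and Pfkl at -0.49 and -0.20 in cycling cells.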

How the data were processed

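Living heart B cells sorted from 6 pooled neonatal and 6 pooled adult mice were captured as 1 library each (10x Genomics 3′ kit, v3). Reads were aligned to mm10 with Cell Ranger (3.0.2 per the file headers) by the authors, and an unfiltered matrix of UMI counts per gene and droplet was deposited for each library. The antibody tags in the matrices held 3 and 2 UMIs and were not used. Sums of counts over cells were divided by the total gene UMIs of those cells and given as CPM, with exact Poisson intervals; log2 ratios have exact conditional binomial intervals and shares of cells Clopper-Pearson intervals, all at 95%. UMIs are not independent of cell, so intervals cover counting error only. With 1 library per age no test was run and no p-value is given. Called means at least 1.5-fold, read against genes of at least 20 CPM over both libraries. Depth is given in the report, and a count of 0 allows 3 counts, or 0.183 CPM in the neonatal and 0.0866 CPM in the adult library.

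Doublets were gated out in the sort by the authors, before cells were captured in droplets. Droplets that hold more than 1 cell were not called. Droplets with at least 2 markers of another cell type, shared barcodes and the deepest 5% of cells were each left out as alternatives, beside thinning to 2000 UMIs, other scalings, other cell filters and other class limits. Free RNA was taken from the droplets ranked 45000 to 90000 by UMIs. The members and lists were chosen with earlier results of these data known. All 10 members are named in each of the 5 main comparisons, but not across age in cells with neither B1 genes nor a cycling UMI. Of 50 other pathway genes, those past 1.5-fold in a comparison or of at least 50 CPM in a library were to be named. Below 20 CPM only those whose interval excluded 0 are named, a limit set after their values were seen. Gene positions came from GENCODE vM21 and upstream sequences from RefSeq (GRCm38.p6), matched by symbol for 10 of 10 members. The scripts ran in Python 3.11.15 with scipy 1.17.1, numpy 2.4.6, matplotlib 3.10.9 and pandas 2.3.3 and were tested on simulated data.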

Additional observations from a re-analysis of the deposited data

Results flagged for a closer look

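Droplets that the choice of cells left out also carried the 10 genes, above the limit that a count of 0 allows. In droplets of at least 2000 UMIs with over 10% mitochondrial UMIs, the genes summed to 1141 CPM (1097 to 1187, from 2480 UMIs) in the neonatal and 1225 CPM (1177 to 1274, from 2476 UMIs) in the adult library. Per non-mitochondrial UMI the sums were 1433 CPM and 1457 CPM, against 1696 CPM and 1609 CPM in the cells kept. In droplets without a Cd79a UMI the genes summed to 2191 CPM (1921 to 2487, from 238 UMIs in 14 droplets) in the neonatal and 1648 CPM (1206 to 2198, from 46 UMIs in 4 droplets) in the adult library.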

How the results depend on the processing

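No paired analysis was possible because each age has 1 library, and for the same reason no replicate could be left out. Of the summaries per comparison, 115 values under an alternative stayed near the reported one and 47 moved. For single genes 544 stayed near, 239 moved and 4 reversed. Reversed was counted only where the reported value was at least 1.5-fold. Other changes of sign are among the values that moved or stayed near. Slc2a1 by cycling in neonatal cells, for one, kept its sign in 9 of 16 alternatives. The median over age kept its sign in 14 of 15, and that over cycling in neonatal cells in 16 of 17. The deepest quartile, the cells of 1 class and at least 3 UMIs of Mki67 and Top2a were chosen after seeing the data. For the median over age, at most 5% mitochondrial UMIs (60 and 156 cells) gave -0.20, thinning to 2000 UMIs -0.021, median-of-ratios scaling 0.0083 and cells with at least 3 B1 genes -0.26. For the median over B1 genes in neonatal cells, thinning (25 cells left in the class) gave 0.13, depth bins 0.0082 and leaving out the deepest 5% of cells 0.19. For the median over cycling in neonatal cells, leaving out shared barcodes gave 0.042, the deepest 5% 0.0068 and cells with B1 genes -0.047, depth bins gave 0.041, and classes of at least 2 UMIs, at least 3 UMIs and both genes gave 0.56, 0.72 and 0.70. In adult cells these 3 classes gave 0.57, 0.73 and 0.75, at most 5% mitochondrial UMIs 0.57 and depth bins 0.10.

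Members at least 1.5-fold higher by B1 genes numbered 1 in neonatal cells, where 5.16% of all genes were. The share of all genes under each setting stands in brackets below. Members numbered 2 with at least 4 B1 genes (4.9%) or at most 5% mitochondrial UMIs (14.4%) and 4 with median-of-ratios scaling (7.04%). They numbered 0 without shared barcodes (4.29%) or among genes of at least 100 CPM (5.86%). In adult cells they numbered 0 (2.63%), but 1 with at least 4 B1 genes (2.53%), at most 5% mitochondrial UMIs (10.7%) or thinning (11.8%). By cycling they numbered 1 in neonatal cells (3.28%). There were 6 with both genes (10.0%) or at least 3 UMIs (9.53%), 4 with at least 2 UMIs (6.19%) and 3 at most 5% mitochondrial UMIs (15.3%). There were 2 with median-of-ratios scaling (3.5%), without immunoglobulin genes in the total (3.44%) or without droplets with markers of another cell type (3.54%). There were 0 with the mean over cells (2.53%), at 100 CPM (2.97%), without shared barcodes (1.72%), without cells with B1 genes (2.41%) or without the deepest 5% (1.86%). In adult cells they numbered 1 (1.82%), but 6 with both genes (9.89%) or at least 3 UMIs (7.04%) and 4 with at least 2 UMIs (4.15%). There were 5 at most 5% mitochondrial UMIs (15.9%), 3 with thinning (11.1%), and 0 at 100 CPM (1.16%), with median-of-ratios scaling (1.52%) or in the deepest quartile (1.32%). Hk2 by cycling in neonatal cells reversed to -2.96 at most 5% mitochondrial UMIs, -0.26 without shared barcodes, -0.39 without the deepest 5% and -0.18 without cells with B1 genes. Hk2, the only member past 1.5-fold in the reported counts, is below 100 CPM, so the counts of 0 at that limit were fixed in advance. Except there and where fewer cells were left by construction, the cause was not tested. One library per age and the low level of Hk2 limit all of these values.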

Other observations

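The steps around glycolysis held several genes of at least 50 CPM. Of the pentose phosphate pathway, which branches off to make NADPH and ribose, Pgls had 256 CPM in neonatal and 227 CPM in adult cells, Taldo1 216 CPM and 195 CPM, and Tkt 121 CPM and 106 CPM. Tkt, a transketolase, was higher in cells with at least 3 B1 genes, at 152 CPM against 113 CPM in neonatal (log2 0.43, 0.29 to 0.58) and 122 CPM against 96.7 CPM in adult cells (0.33, 0.23 to 0.42), and Taldo1 lower, at -0.19 and -0.29. Of the genes that move or use pyruvate and lactate, Mpc1, a subunit of the mitochondrial pyruvate carrier, had 153 CPM and 154 CPM, its partner Mpc2 84.9 CPM and 86.2 CPM, Bsg, the chaperone of lactate carriers, 92.8 CPM and 98.6 CPM, and Pdhb of pyruvate dehydrogenase 64.1 CPM and 53.5 CPM. Bsg was at 0.48 (0.30 to 0.66) and 0.26 (0.14 to 0.37) by cycling in neonatal and adult cells. Mlxip, a glucose-responsive transcription factor, had 50.1 CPM and 36.4 CPM (-0.46, -0.59 to -0.33). Among cells with at least 3 B1 genes, Hif1a was higher in adult cells (0.60), and Myc (-0.72) and Rpia (-0.74) were lower, 1 and 2 of 18 beside 4.65% and 7.08% of all genes.

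Pathway genes below 20 CPM rest on few UMIs. Across age, 4 of 27 with a UMI were at least 1.5-fold higher in adult cells and 8 lower. Among genes of at least 20 CPM, 3.58% were higher and 7.63% lower. The share among all genes below 20 CPM was not counted, so these numbers are not read as a trait of the pathway. Those past 1.5-fold with an interval excluding 0 were Aldoc (0.70) higher and Eno3 (-0.83), Pdk2 (-0.60), Ldhb (-2.22) and the lactate carriers Slc16a1 (-1.61, 17.9 CPM to 5.89 CPM) and Slc16a3 (-2.16) lower. By B1 genes they were Eno3 (1.22) and Slc16a3 (1.37) higher and Bnip3 (-1.92) lower in neonatal cells, and Eno3 (0.63) higher and Pdk2 (-0.92), Bnip3 (-1.13), Ddit4 (-0.61) and Slc16a1 (-0.69) lower in adult cells. By cycling they were Pdk3 (0.84) higher and Pfkfb3 (-0.63) and Bnip3 (-0.87) lower in neonatal cells, and Eno3 (0.67) higher and Pdk2 (-1.05) lower in adult cells. Across age within cells with at least 3 B1 genes they were Hk1 (0.59) higher and Pfkm (-2.84), Eno3 (-1.32), Ddit4 (-0.94), Slc16a1 (-1.94) and Slc16a3 (-3.16) lower.

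Among 2342 genes of at least 50 CPM in both libraries, those whose UMIs per cell went most with the summed UMIs of the 10 genes, in cells thinned to 2000 UMIs, were Actb, Actg1, Pfn1, Hsp90ab1, Mif, Rps2, Eif5a, Ppia, Nme1 and Cyba. The mean of Pearson's r over the 2 libraries was 0.098 for Actb and 0.065 for Cyba, where the 95th percentile of all genes was 0.037. The lowest values were -0.12 for the nuclear RNA Malat1 and -0.085 for Cxcr4, a chemokine receptor. These are weak correlations of sparse counts over cells that share a library. Nme1, a nucleoside diphosphate kinase, was at 0.79 and 0.51 (log2) by B1 genes and at 0.78 and 0.43 by cycling in neonatal and adult cells. The cytoskeletal actin Actg1 was at 0.63 and 0.51 and at 0.40 and 0.40. Rps2 was at 0.57 and 0.40 by B1 genes, Hsp90ab1 at 0.44 and 0.40 and Eif5a at 0.39 and 0.26. Ppia was at 0.32 and 0.13 there, Cyba at 0.27 and 0.22 and Actb at 0.09 and 0.17. In the cycling division Eif5a was at 0.40 and 0.37, Ppia at 0.40 and 0.24 and Hsp90ab1 at 0.29 and 0.38. Rps2 was at 0.29 and 0.21 there, Mif at 0.26 and 0.28, Actb at 0.13 and 0.27 and Pfn1 at 0.11 and 0.17. Only some values lay near 0. By B1 genes Pfn1 was at 0.001 and 0.007 and Mif at 0.076 and -0.008, all with intervals that included 0. By cycling Cyba was at 0.019 and 0.055.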
